A study of Mus musculus with 6 samples.

Results

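The 10 genes described here encode subunits of the transcription factor NF-kB and proteins that regulate it or are induced by it: Nfkb1, Nfkb2, Rel, Rela, Relb, Nfkbia, Nfkbie, Tnfaip3, Bcl3 and Traf1. They were chosen by name, with earlier results of these data known. Each was represented by the probe set of that single gene symbol with the highest mean over 6 Affymetrix arrays of mouse thymocytes. Of the 10, 9 were measured, out of 19937 genes in all, each of the 9 by a single probe set. Nfkb1 was not analysed here.

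The arrays compare DNTLX3+ with RAG-/- cells, 3 arrays each. DNTLX3+ cells were double-negative (DN) thymocytes, the precursors that carry neither CD4 nor CD8, sorted from wild-type C57Bl/6 mice aged 4 to 6 weeks and infected with the retrovirus pMSCV-GFP-TLX3. TLX3 encodes a homeobox transcription factor that is activated aberrantly in some T-cell leukaemias. These cells were then kept for 4 to 5 weeks on irradiated OP9-DL1 stroma, which presents a Notch ligand, with IL-7 and Flt3L supplied by cell supernatants, and the labels call them tumoral. RAG-/- cells, the labelled controls, were DN thymocytes of Rag2-/- mice, for which the shared protocol gives the same age of 4 to 6 weeks. These mice cannot assemble antigen receptors, and their thymocytes stop at the DN stage. Wild-type DN cells carrying the pMSCV-GFP vector alone were not analysed here, and the labels do not say whether the RAG-/- cells were cultured, so TLX3, Rag2 genotype, virus and culture cannot be told apart. The labels do not say whether replicates were separate mice, pools of mice or cultures, so the spread behind each p-value may be technical.

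NF-kB is a dimer of Rel-family proteins. In the canonical route, receptor signals activate the IKK kinase complex, which marks the IkB inhibitors for destruction and frees dimers of Rela or Rel to enter the nucleus. In the alternative route, the kinase Map3k14 triggers processing of the Nfkb2 precursor, which then pairs with Relb. NF-kB induces several of its own brakes, among them Nfkbia and Tnfaip3, and its inducible precursor Nfkb2, so these genes are often used as readouts of its activity. In thymocytes the pre-T-cell receptor is known to activate NF-kB, and in the thymic stroma Relb and Nfkb2 are known for the development of medullary epithelium and dendritic cells.

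The NF-kB genes did not all move the same way. Of the 9 measured, 8 had a lower mean in DNTLX3+ cells and 1, Rela, a higher one. Nfkb2 was 2.25-fold lower in DNTLX3+ cells than in RAG-/- cells and Rela was 1.56-fold higher. Traf1, Rel and Relb were lower by smaller or less stable amounts. The inhibitors Nfkbia and Nfkbie, the ubiquitin-editing enzyme Tnfaip3 and the IkB-like Bcl3 did not pass the test. All values are log2 expression after RMA, and differences are DNTLX3+ minus RAG-/-. A gene is said to have risen or fallen where the adjusted p (limma, Benjamini-Hochberg) was under 0.05, and is called where the log2 difference was also at least 1 in size, which is 2-fold.

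At the adjusted p alone, 4 of the 9 measured genes fell, where 19.4% of all genes did, and 1 rose, where 23.0% of all genes did. With the minimum difference, 1 of 9 was called lower, against 5.07% of all genes, and 0 were called higher, against 1.44%. By unadjusted limma p under 0.05, 5 were lower and 1 was higher. The median log2 difference of the 9 was -0.32, where it was 0.11 over all genes. All 9 lay above the median level of probe sets, and among the 10756 genes that did so the median was -0.14, 30.6% fell and 15.1% rose. The groups did not overlap for 6 genes that were lower in DNTLX3+ cells, against 26.0% of all genes, and for 1 that was higher, against 32.3%. Among genes above the median level these shares were 41.3% and 22.2%.

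**Figure D1:**
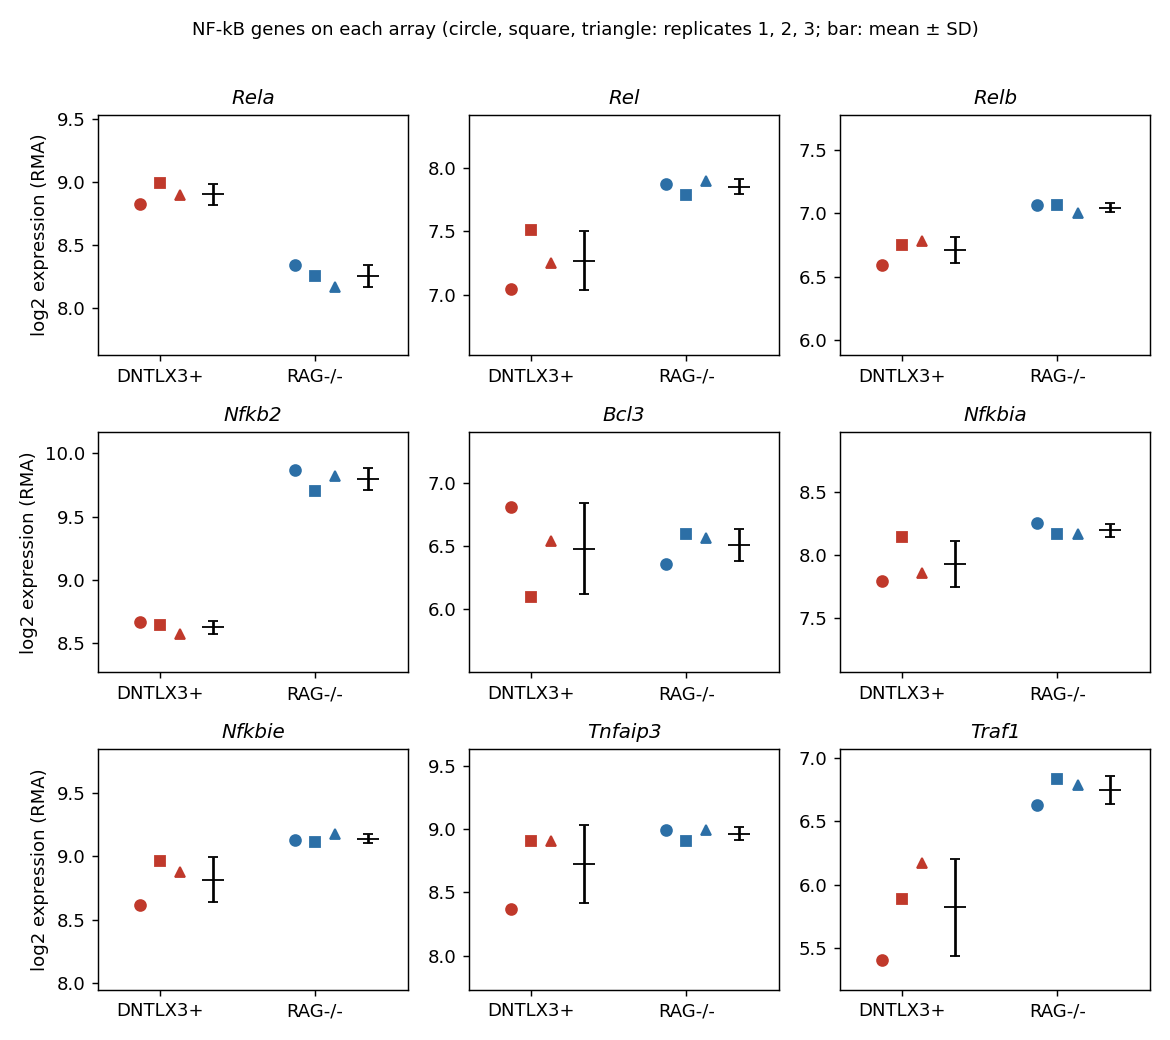
Log2 expression of each of the 9 measured NF-kB genes on each array, DNTLX3+ in red and RAG-/- in blue, with the mean and SD of 3 arrays as a black bar; every panel spans the same number of log2 units. Rela is higher on all 3 DNTLX3+ arrays, Nfkb2 shows the widest gap between groups, and Bcl3 and Tnfaip3 overlap.

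RefSeq promoter sequences show which of these genes carry a candidate NF-kB element next to their start. The table of assembly GRCm38.p6 held windows for 8 of the 10 genes, and the 250 bases before each listed start were searched on both strands for the NF-kB consensus motif. A match was present for 5 of the 8 genes, Nfkb2, Rel, Nfkbia, Nfkbie and Tnfaip3, and in none of the windows of Rela, Traf1 and Bcl3. Over all 27025 genes with a window, 8.23% held a match. A match is a run of letters and not evidence of binding. The sequences of Nfkb2 and Rel, which fell, of Nfkbia and Tnfaip3, which did not pass, and of Rela, which rose, are shown 5′ to 3′ up to the listed start, with consensus matches in capitals. They lie at chr19:46304487-46304736, plus strand, for the first of 3 windows of Nfkb2, at chr11:23770970-23771219, minus strand, at chr12:55492648-55492897, minus strand, at chr10:19015411-19015660, minus strand, for the first of 2 windows of Tnfaip3, and at chr19:5637291-5637540, plus strand.
Nfkb2: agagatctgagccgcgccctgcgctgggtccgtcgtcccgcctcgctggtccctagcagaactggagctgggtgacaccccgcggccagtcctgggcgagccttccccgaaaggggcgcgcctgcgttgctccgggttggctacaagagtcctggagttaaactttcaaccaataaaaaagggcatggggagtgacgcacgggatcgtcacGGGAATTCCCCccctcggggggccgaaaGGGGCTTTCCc
Rel: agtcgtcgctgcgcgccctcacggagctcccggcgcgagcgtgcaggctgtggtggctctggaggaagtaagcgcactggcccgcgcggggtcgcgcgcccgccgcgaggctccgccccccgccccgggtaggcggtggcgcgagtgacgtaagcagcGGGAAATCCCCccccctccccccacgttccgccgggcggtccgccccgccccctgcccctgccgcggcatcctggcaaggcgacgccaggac
Nfkbia: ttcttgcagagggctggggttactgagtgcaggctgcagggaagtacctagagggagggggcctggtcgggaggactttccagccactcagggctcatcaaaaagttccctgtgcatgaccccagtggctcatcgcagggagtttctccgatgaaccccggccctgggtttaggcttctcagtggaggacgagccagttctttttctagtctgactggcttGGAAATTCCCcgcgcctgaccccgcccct
Tnfaip3: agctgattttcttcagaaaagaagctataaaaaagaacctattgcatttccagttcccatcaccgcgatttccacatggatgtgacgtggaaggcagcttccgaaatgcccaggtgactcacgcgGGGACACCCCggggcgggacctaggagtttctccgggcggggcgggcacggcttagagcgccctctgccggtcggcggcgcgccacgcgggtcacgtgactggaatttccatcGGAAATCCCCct
Rela: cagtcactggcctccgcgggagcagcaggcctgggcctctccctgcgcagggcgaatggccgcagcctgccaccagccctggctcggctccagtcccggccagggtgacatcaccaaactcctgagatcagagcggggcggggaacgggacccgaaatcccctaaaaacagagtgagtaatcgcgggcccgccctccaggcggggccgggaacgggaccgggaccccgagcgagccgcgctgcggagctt

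In the Nfkb2 window the capitals cover a pair of overlapping matches, which begin 39 and 38 bases before the start, and a separate one, GGGGCTTTCC, which begins 11 bases before it. The other windows of Nfkb2 held GGAATGTCCC and GGGACTTTCC. Rel also had overlapping matches, which begin 92 and 91 bases before its start. Nfkbia had GGAAATTCCC, which begins 29 bases before the start, and Tnfaip3 had matches beginning 125 and 12 bases before it. Of the 5 genes with a match, Nfkb2 and Rel fell while Nfkbia, Nfkbie and Tnfaip3 did not pass the test. Of the 3 without one, Rela rose, Traf1 fell and Bcl3 did not pass.

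Among the subunits, Nfkb2, the precursor of the alternative-route subunit, showed the largest difference of the 9. It stood at 8.67, 8.64 and 8.57 on the DNTLX3+ arrays and at 9.87, 9.70 and 9.82 on the RAG-/- arrays. All DNTLX3+ arrays lay at least 1.03 log2 units below every RAG-/- array. The means were 8.63 ± 0.05 in DNTLX3+ cells and 9.79 ± 0.09 in RAG-/- cells (SD, n = 3 each), a log2 difference of -1.17 ± 0.12 (SE) with a limma adjusted p of 0.00026. Of all genes, 3.15% had a lower difference. It was called in all 15 alternative settings, with log2 differences from -1.23 to -1.01.

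Rela, the transactivating subunit of the canonical route, moved the other way. It stood at 8.82, 8.99 and 8.89 on the DNTLX3+ arrays and at 8.34, 8.25 and 8.17 on the RAG-/- arrays. The groups did not overlap, and the closest arrays were 0.48 log2 units apart. The means were 8.90 ± 0.08 in DNTLX3+ cells and 8.26 ± 0.09 in RAG-/- cells (SD, n = 3 each), a log2 difference of 0.64 ± 0.12 (SE) with a limma adjusted p of 0.00359. It passed the adjusted p in all 15 alternatives, at 0.58 to 0.86, and never reached the minimum difference. Of all genes, 89.8% had a lower difference, and 23.0% rose at the adjusted p.

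The opposed changes of Rela and Nfkb2 can be read within each array, where any scaling that shifts a whole array cancels. The log2 signal of Rela minus that of Nfkb2 was 0.16, 0.34 and 0.32 on the DNTLX3+ arrays and -1.52, -1.44 and -1.65 on the RAG-/- arrays. Because probe sets differ in brightness, only the change between groups has a meaning, and it was 1.81 log2 units. This pair was picked after the values were seen, and no test was made of it.

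Rel, the subunit known for its part in lymphocyte activation, was lower in DNTLX3+ cells. It stood at 7.04, 7.51 and 7.25 on the DNTLX3+ arrays and at 7.87, 7.79 and 7.90 on the RAG-/- arrays, with no overlap. The log2 difference was -0.59 ± 0.15 (SE), with a limma adjusted p of 0.0115. It was -0.32 after repeated quantile normalization, with an adjusted p of 0.069, the 1 alternative of 15 in which it did not pass.

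Relb, the partner of processed Nfkb2, differed least of the subunits measured. It stood at 6.59, 6.75 and 6.78 on the DNTLX3+ arrays and at 7.07, 7.07 and 7.00 on the RAG-/- arrays. The groups did not overlap, and the log2 difference was -0.34 ± 0.12 (SE) with a limma adjusted p of 0.0473. It did not pass the adjusted p in 10 of 15 alternatives, among them the omission of any single array (-0.37 to -0.28), the replicate number as a block (adjusted p of 0.0949) and repeated quantile normalization (-0.09, adjusted p of 0.503).

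The inhibitors Nfkbia and Nfkbie, and Tnfaip3 and Bcl3, differed less than Nfkb2 and did not pass the test. Nfkbia, the inhibitor that holds Rela and Rel dimers in the cytoplasm, stood at 7.79, 8.14 and 7.86 on the DNTLX3+ arrays and at 8.25, 8.17 and 8.17 on the RAG-/- arrays. The groups were 0.03 log2 units apart at their closest, and the difference was -0.27 ± 0.13 (SE, limma adjusted p of 0.134). It passed without DNTLX3+ replicate 2 (-0.37, adjusted p of 0.0425).

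Nfkbie, a related inhibitor, stood at 8.61, 8.96 and 8.87 on the DNTLX3+ arrays and at 9.13, 9.11 and 9.18 on the RAG-/- arrays. The groups did not overlap, but the difference of -0.32 ± 0.13 (SE) had a limma adjusted p of 0.0743. It passed without DNTLX3+ replicate 2 (-0.40, adjusted p of 0.0466) and when dim probe sets were left out of the adjustment (adjusted p of 0.0497).

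Tnfaip3, a ubiquitin-editing enzyme that switches off signalling to IKK, stood at 8.37, 8.91 and 8.90 on the DNTLX3+ arrays and at 8.99, 8.91 and 8.99 on the RAG-/- arrays. Its difference of -0.24 ± 0.16 (SE, limma adjusted p of 0.262) came mostly from 1 array: it was -0.06 without DNTLX3+ replicate 1. Bcl3, a nuclear IkB-like protein that can act with NF-kB dimers as a coactivator, stood at 6.81, 6.10 and 6.54 on the DNTLX3+ arrays and at 6.36, 6.60 and 6.57 on the RAG-/- arrays. Its groups overlapped fully, its difference was -0.03 ± 0.18 (SE, limma adjusted p of 0.91), and its sign turned in 5 of 15 alternatives.

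Traf1, an adaptor of TNF receptors whose gene is a known NF-kB target, had the second largest size of difference among the 9. It stood at 5.41, 5.88 and 6.17 on the DNTLX3+ arrays and at 6.63, 6.83 and 6.79 on the RAG-/- arrays, with no overlap. The log2 difference was -0.93 ± 0.19 (SE), with a limma adjusted p of 0.00508. It passed the adjusted p in all 15 alternatives, at -1.10 to -0.72, and was called only without DNTLX3+ replicate 3. Its DNTLX3+ mean of 5.82 lay under the array medians of 6.22 to 6.35, a range where signal may be background, so the size of this difference is that of the deposited values.

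**Figure D2:**
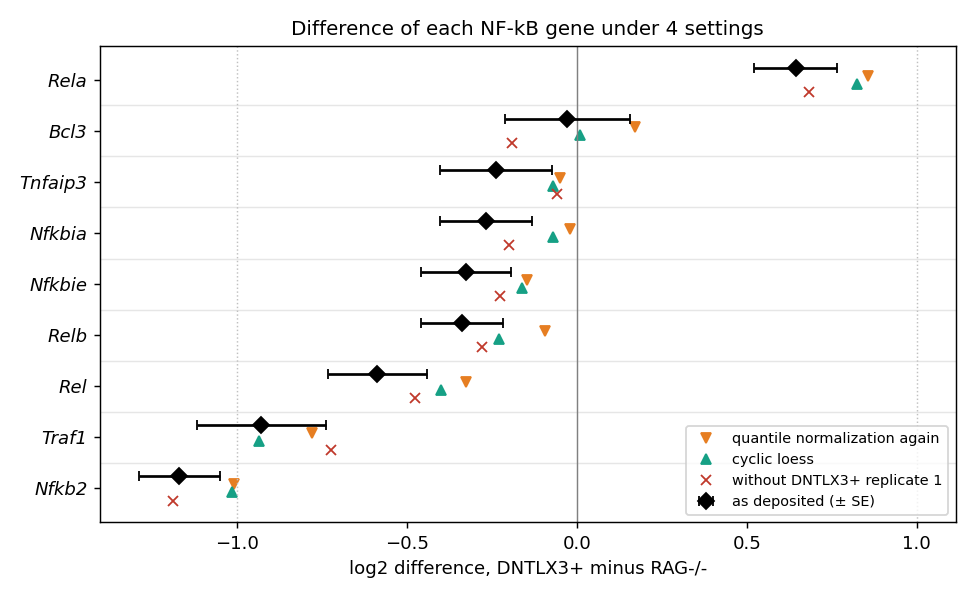
Log2 difference (DNTLX3+ minus RAG-/-) of each NF-kB gene as deposited, with its SE, after repeated quantile normalization, after cyclic loess, and without DNTLX3+ replicate 1; dotted lines mark differences of 1. Nfkb2 stays at or beyond -1.01 and Rela between 0.64 and 0.86 in these settings, while Relb, Nfkbia, Nfkbie and Tnfaip3 move toward 0 after repeated quantile normalization.

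The arrays differed in spread, which touches these small differences. The interquartile range was 2.47, 2.85 and 2.75 log2 units on DNTLX3+ replicates 1, 2 and 3 and 3.09 to 3.18 on the RAG-/- arrays. DNTLX3+ replicate 1 was the lowest of its group for 7 of the 9 NF-kB genes, and for 60.4% of all genes above the median level. Nfkb2 and Bcl3 were the exceptions. Tlx3 was higher on the DNTLX3+ arrays, with a mean of 6.69 against 5.45 on the RAG-/- arrays (log2 difference 1.24). Its RAG-/- mean lay under the array medians, where signal may be background. Rag2 did not pass the test (-0.30, limma adjusted p of 0.124). Whether its probes lie in the deleted part is not stated, so Rag2 does not check the labels.

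Counts of cell type markers are read beside all genes, of which 19.4% fell, 23.0% rose and 5.07% were called lower. Above the median level, 30.6% fell, 15.1% rose and 7.62% were called lower. Of 12 T-lineage markers, 8 fell, 2 rose (Cd5, 0.82, and Gata3, 0.66) and 1 was called lower. Their summed linear signals were 18994 to 23166 on the DNTLX3+ arrays and 25451 to 26495 on the RAG-/- arrays. Cd3e, of the T-cell receptor complex, averaged 10.85 in DNTLX3+ and 11.35 in RAG-/- cells, and Ptcra, of the pre-T-cell receptor, averaged 9.03 in DNTLX3+ and 10.14 in RAG-/- cells. Markers of other cells moved with the groups. Of 26 myeloid and dendritic markers, 20 were called lower in DNTLX3+ cells and 0 rose, and their summed signal was 1933 to 2042 on the DNTLX3+ arrays and 9531 to 11183 on the RAG-/- arrays. Of 14 thymic epithelial markers, 10 fell, 7 of them called, and 1 rose, with sums of 1768 to 1974 on DNTLX3+ arrays and 7322 to 13089 on RAG-/- arrays. Of 14 NK and cytotoxic markers, 10 were called lower and 1 rose, with sums of 1611 to 2089 on DNTLX3+ arrays and 3684 to 4342 on RAG-/- arrays. Of 11 stromal and endothelial markers, 2 were called lower (1417 to 1698 in DNTLX3+, 1801 to 2032 in RAG-/-), and of 11 B-cell markers 3 fell, 2 rose and 0 were called (564 to 645 in DNTLX3+, 760 to 802 in RAG-/-).

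The defining markers Cd74 and H2-Aa (MHC class II), Itgax (dendritic cells), Prss16 and Psmb11 (cortical thymic epithelium) and Ncr1 (NK cells) averaged 5.17, 5.02, 5.35, 5.89, 5.73 and 4.87 in DNTLX3+ cells, all under the array medians. They averaged 10.26, 10.52, 7.88, 11.49, 8.39 and 7.85 in RAG-/- cells. The keratin Krt8 averaged 7.10 in DNTLX3+ and 9.46 in RAG-/- cells. Other markers of these lists, named after their values were seen, went otherwise: Cldn3 (0.97, limma adjusted p of 0.00315) of the epithelial list and Gzma (0.76, limma adjusted p of 0.00782) of the NK list rose, and Batf3, Xcr1, Flt3, Epcam, Krt14 and Aire did not pass. Nfkb2, Relb, Rel and Traf1 are known to be used by dendritic and epithelial cells too, and the part of these cells in the lower values was not tested. Fewer cells of a type and less RNA per cell cannot be told apart in bulk RNA. Among the RAG-/- arrays, replicate 3 had the most Prss16 (12.17, against 11.18 and 11.12 in replicates 1 and 2). On that array Rel was the highest of the group (7.90, against 7.87 and 7.79), Nfkb2 and Traf1 lay between the other replicates, and Relb was the lowest, at 7.00. Other markers differed in their order: H2-Aa was also highest on replicate 3 (10.83), but Lyz2 was highest on replicate 1 (9.75). A link between these orders and the NF-kB genes was not tested.

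**Figure D3:**
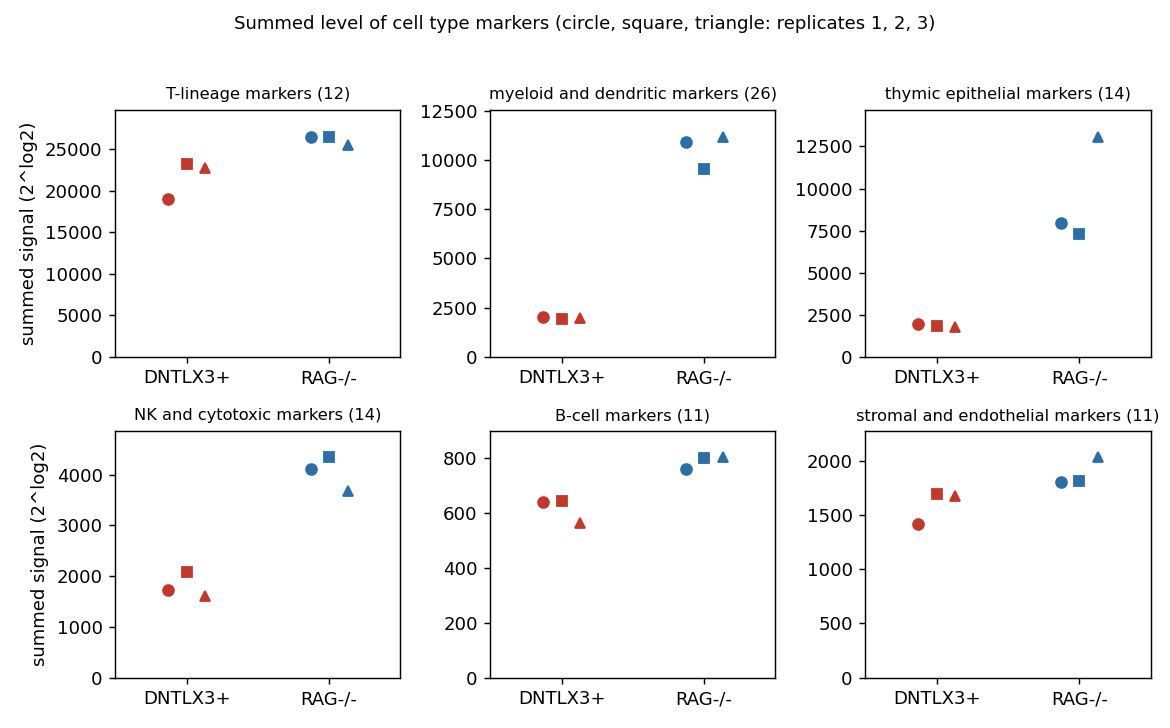
Summed linear signal of the markers of each cell type on each array, with the number of measured markers in brackets. The sums of all 6 lists are lower on each DNTLX3+ array than on any RAG-/- array, the T-lineage sum included, and RAG-/- replicate 3 has the highest epithelial sum, 13089.

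The rest of the pathway was surveyed through 9 lists holding 140 measured genes. Of these, 16 were called lower (11.4%), against 5.07% of all genes, and 0 were called higher, against 1.44%, also with an unadjusted limma p under 0.05 in place of the adjusted one. At the adjusted p alone, 55 fell (39.3%) and 10 rose (7.14%), where 19.4% and 23.0% of all genes did. Among genes above the median level, 7.62% were called lower and 1.37% called higher, and 30.6% fell and 15.1% rose.

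Of the other IkB proteins, 1 of 4 fell, against 19.4% of all genes. The gene that fell was Nfkbiz, a nuclear IkB that is itself induced by NF-kB. It averaged 6.30 ± 0.15 in DNTLX3+ cells and 6.88 ± 0.06 in RAG-/- cells (SD, n = 3 each), a log2 difference of -0.57 (limma adjusted p of 0.00786). Nfkbib (0.11) and Nfkbid (0.21) did not pass, though both did after repeated quantile normalization (0.34 and 0.45).

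The list of the IKK complex and its kinases leaned lower. Its 12 measured genes are not all kinases, and include the adaptors Tab1, Tab2 and Tab3, which fell. Of the 12, 9 fell, 0 rose and 3 did not pass, the kinase Csnk2a1 among these 3, with a median log2 difference of -0.52. By unadjusted limma p under 0.05, 10 were lower and 0 higher. None of these 12 genes had a group mean under the array medians. Among all genes above the median level, 30.6% fell, 15.1% rose and the median was -0.14. Ikbke, an IKK-related kinase, was the one called: it stood at 7.22, 7.28 and 7.51 on the DNTLX3+ arrays and at 8.58, 8.61 and 8.68 on the RAG-/- arrays, a difference of -1.29 ± 0.13 (SE, limma adjusted p of 0.000235). Ikbkb, the catalytic IKK subunit of the canonical route, fell by 0.86 and was called without DNTLX3+ replicate 3 (-1.02). Map3k14, the kinase of the alternative route, fell by 0.40. It did not pass in 6 of 15 alternatives: after repeated quantile normalization (-0.13, adjusted p of 0.369) or cyclic loess (-0.23, adjusted p of 0.128), with the replicate number as a block (adjusted p of 0.0567) and without any 1 of the RAG-/- arrays (adjusted p of 0.0789 to 0.122). Ikbkg, the regulatory subunit, differed by -0.28 without passing. Chuk was not analysed here.

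Of 8 genes of the route from the antigen receptor through BCL10 and MALT1, 5 fell and 0 rose, with a median of -0.55. By unadjusted limma p under 0.05, 6 were lower and 1 higher. None of these 8 genes had a group mean under the array medians. Among all genes above the median level, 30.6% fell, 15.1% rose and the median was -0.14. Malt1, the protease of that complex, fell by 0.92, to a mean of 6.92 in DNTLX3+ cells, against 7.83 in RAG-/- cells, and was called without DNTLX3+ replicate 2 (-1.01). Bcl10, its partner, was at 0.41 and did not pass (limma adjusted p of 0.0751), though it did after repeated quantile normalization (0.64), after cyclic loess (0.54), with array weights (0.48) and without DNTLX3+ replicate 1 (0.58).

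Of 12 TRAF, RIPK and BIRC adaptors, 7 fell, 1 rose and 4 did not pass, with a median of -0.43. Over all genes, 19.4% fell, 23.0% rose and 5.07% were called lower. Above the median level, 30.6% fell, 15.1% rose and 7.62% were called lower. Xiap and Birc2, ubiquitin ligases of the inhibitor-of-apoptosis family, were called lower at -1.17 and -1.02. Birc2 lost the call after repeated quantile normalization (-0.77), after cyclic loess (-0.82) and without DNTLX3+ replicate 1 (-0.90) or RAG-/- replicate 1 (-0.95). It also lost it with array weights (-0.96) and with the mean of its probe sets (-0.84), the second of which gave -0.67. Xiap lost it after repeated quantile normalization (-0.97), after cyclic loess (-0.99) and without DNTLX3+ replicate 1 (-0.94). Birc3, another member and a known NF-kB target, fell by 0.50, and Traf2, which recruits these ligases, fell by 0.55. Birc3 did not pass after repeated quantile normalization (-0.24, adjusted p of 0.134) or without RAG-/- replicate 1 (adjusted p of 0.0739) or 2 (adjusted p of 0.0528). Traf2 did not pass after repeated quantile normalization (-0.34, adjusted p of 0.0753) or cyclic loess (-0.37, adjusted p of 0.0575), or without any 1 of the RAG-/- arrays (adjusted p of 0.0768 to 0.0891). Traf3 was not analysed here.

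Of 20 genes of ubiquitin editing and feedback, 6 fell, 0 rose and 14 did not pass, with a median of -0.16. This is near all genes above the median level, of which 30.6% fell, with a median of -0.14, though 15.1% of those rose. Over all genes, 19.4% fell, 23.0% rose and 5.07% were called lower. By unadjusted limma p under 0.05, 7 were lower and 1 higher. The ubiquitin ligase Itch was called lower at -1.01, and it was not called without DNTLX3+ replicate 1 (-0.87), without RAG-/- replicate 1 (-0.98) or without RAG-/- replicate 2 (-0.99). It also lost the call after repeated quantile normalization (-0.78), after cyclic loess (-0.82) and with array weights (-0.97). Cyld, a deubiquitinase that restrains IKK, fell by 0.46. It did not pass in 5 of 15 alternatives: after repeated quantile normalization (-0.25, adjusted p of 0.109) or cyclic loess (-0.28, adjusted p of 0.0797), with the replicate number as a block (adjusted p of 0.0503), and without RAG-/- replicate 1 (-0.38, adjusted p of 0.119) or 3 (-0.48, adjusted p of 0.0663). Tnip1, a partner of Tnfaip3, differed by -0.06 without passing.

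Receptors and ligands of the TNF families were mixed, and are read beside the 19.4% of all genes that fell and the 23.0% that rose. Of 15 receptors, 4 fell, 2 rose and 9 did not pass, and Ltbr (0.10) and Tnfrsf1a (-0.33) were among those that did not, Tnfrsf1a passing without DNTLX3+ replicate 3 (-0.43). Of 13 ligands, 2 fell, 4 rose and 7 did not pass, and 9 had DNTLX3+ means and 8 had RAG-/- means under the array medians. Tnf itself rose, standing at 6.91, 7.28 and 7.16 on the DNTLX3+ arrays and at 6.22, 6.48 and 6.59 on the RAG-/- arrays, a difference of 0.69 ± 0.15 (SE, limma adjusted p of 0.00743). Ltb, a ligand of the alternative route, was at 0.15 and did not pass. Tnfsf10, a death ligand, was called lower at -1.12, though not after repeated quantile normalization (-0.87) or cyclic loess (-0.93).

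Of 22 genes of the Toll-like and interleukin 1 receptor route, 7 fell and 0 rose. Over all genes, 19.4% fell, 23.0% rose and 5.07% were called lower. By unadjusted limma p under 0.05, 8 were lower and 1 higher. Of these 22 genes, 14 had DNTLX3+ means and 10 had RAG-/- means under the array medians, where signal may be background. Both chains of the interleukin 18 receptor were called. Il18r1 averaged 4.31 ± 0.34 in DNTLX3+ cells and 6.57 ± 0.09 in RAG-/- cells, and Il18rap averaged 5.03 ± 0.17 and 7.12 ± 0.09 in that order (SD, n = 3 each). The DNTLX3+ means of both chains lay under the array medians. Tlr7, a sensor of RNA, was called at -1.15 with both group means under the array medians. NK cells are known to carry the interleukin 18 receptor, and 10 of 14 NK and cytotoxic markers were called lower; their part in this was not tested.

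Known NF-kB target genes showed a wide range. Of 34 measured, 14 fell, 3 rose and 17 did not pass, and 8 were called lower, with a median of -0.25. Over all genes, 19.4% fell, 23.0% rose and 5.07% were called lower. Above the median level, 30.6% fell, 15.1% rose and 7.62% were called lower. The DNTLX3+ means of 21 and the RAG-/- means of 16 lay under the array medians, where signal may be background. Vcam1, an adhesion molecule of stroma and macrophages, stood at 5.75, 5.98 and 5.24 on the DNTLX3+ arrays and at 9.15, 8.86 and 9.13 on the RAG-/- arrays. Plek, a platelet and leukocyte signalling protein, was at -1.86, Cd83, a marker of mature dendritic cells, at -1.32, and Cflar, an inhibitor of caspase 8, at -1.22. The DNTLX3+ means of Vcam1 (5.66) and Plek (5.27) lay under the array medians. Cflar was not called after repeated quantile normalization (-0.99) or without DNTLX3+ replicate 1 (-0.96), and its other probe sets gave -1.29 and -1.18. The adhesion molecule Icam1 (-0.70), the transcription factor Irf1 (-0.71) and the survival gene Bcl2l1 (-0.54) fell, and Gadd45b, a stress-response gene, was at -0.25 and did not pass (limma adjusted p of 0.415), though it did without DNTLX3+ replicate 1 (-0.54). Another probe set of Irf1 gave a smaller difference of -0.41 (limma adjusted p of 0.0281). Bcl2l1 did not pass after repeated quantile normalization (-0.26) or without RAG-/- replicate 1 (-0.48). Vcam1 and Cd83 are known from stromal and dendritic cells, of whose markers 2 of 11 and 20 of 26 were called lower; their part in this was not tested.

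**Figure D4:**
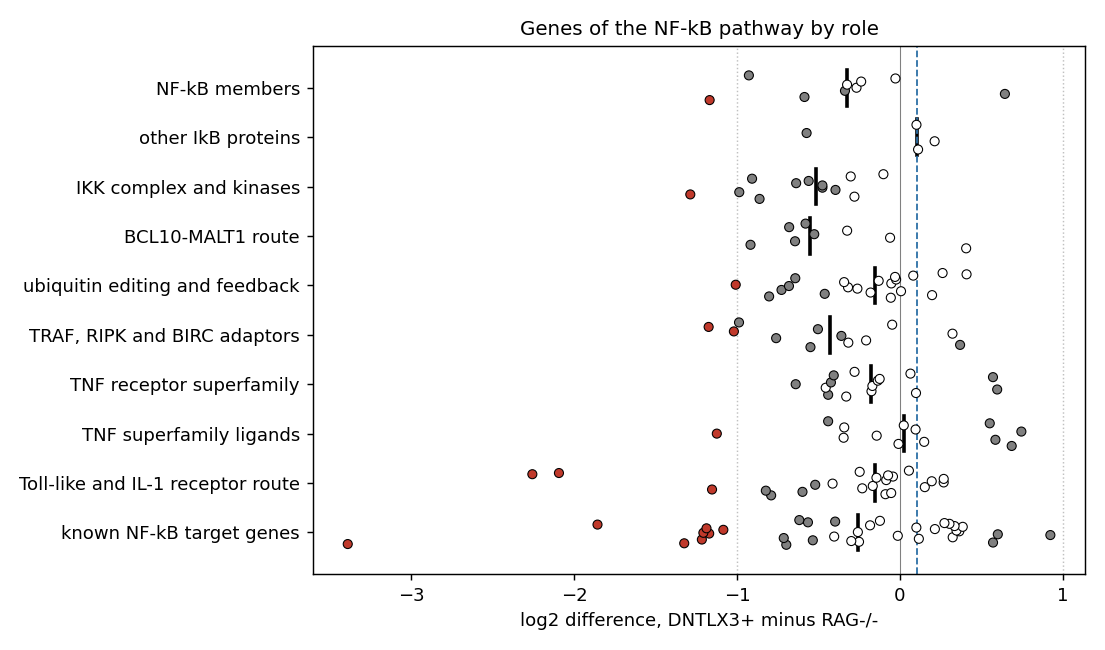
Log2 difference (DNTLX3+ minus RAG-/-) of each measured gene, by role in the pathway; red points were called, grey points passed the adjusted p only and white points did not pass. Black bars mark list medians, the dashed line the median of all genes at 0.11, and dotted lines differences of 1.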

How the data were processed

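Total RNA carried a biotin label on 6 single-colour arrays, per the labels. The deposited log2 values per probe set were made by the authors with RMA under R 2.9.0 with affy, as listed in the submitters' processing notes. RMA usually subtracts background, equalises array distributions and summarises probes. The deposited values were not equal in spread over the tested probe sets. Their interquartile range was 2.47 to 2.85 on the DNTLX3+ arrays and 3.09 to 3.18 on the RAG-/- arrays. No genome build is stated in the sources used here.

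Groups and replicate numbers came from the sample titles. Of 34760 probe sets, 6568 numbered before the genome-ordered ones were taken as controls and left out. The other 28192 were fitted with limma 3.58.1 in R 4.3.3 (lmFit, then eBayes; two-sided, no covariate), with Benjamini-Hochberg adjustment over all of them. Of these, 21640 had 1 gene symbol, 1321 several and the rest none, and those with several were not used to name genes. The call thresholds were an adjusted p of 0.05 and a log2 difference of 1. The fit was tested on simulated data. Plots were drawn with matplotlib 3.10.9.

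The members and gene lists were chosen with earlier results of these data known. Named genes are the 10 members, up to 4 called genes per pathway list and direction, and a fixed set of pathway and marker genes. Other genes of the lists are given as counts. Genes without a single-symbol probe set were not analysed here. Alternatives were repeated quantile normalization, equal array medians, cyclic loess, omission of dim probe sets, all probe sets kept, array weights, robust estimation with an intensity trend, averaging of a gene's probe sets, the replicate number as a block, and the omission of each array. The number of arrays limits the precision. Promoter windows came from RefSeq (GRCm38.p6).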

Additional observations from a re-analysis of the deposited data

How the results depend on the processing

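Across 15 alternatives, Nfkb2 kept its call and Rela and Traf1 kept their direction and their side of the adjusted p. The number of NF-kB genes called lower was 1 in every alternative except without DNTLX3+ replicate 3, where Traf1 (-1.10) made it 2, so leaving out 1 array gave 1 to 2. The number that fell at the adjusted p was 2 after repeated quantile normalization, where 14.0% of all genes fell and 33.2% rose, and 3 to 5 when 1 array was left out. Bcl3 turned positive after cyclic loess (0.0098), after repeated quantile normalization (0.17) and without RAG-/- replicate 2 (0.02), RAG-/- replicate 3 (0.0012) or DNTLX3+ replicate 2 (0.16), and its values without 1 array ran from -0.19 to 0.16. Ikbkg turned to 0.0046 after repeated quantile normalization. Tnip1 turned to 0.22 there, to 0.13 after cyclic loess and to 0.0018 without DNTLX3+ replicate 1, with values of -0.12 to 0.0018 when 1 array was left out. Ltbr turned to -0.055 with array weights and to -0.089 without DNTLX3+ replicate 1, with values of -0.089 to 0.25 when 1 array was left out. Pathway genes called higher numbered 2 after repeated quantile normalization, 1 after cyclic loess and 0 to 1 when 1 array was left out. Those called lower numbered 9 when dim probe sets were left out, where fewer genes were tested, and 13 to 20 when 1 array was left out. Markers of other cell types called higher numbered 1 after repeated quantile normalization, cyclic loess or array weights, and 0 to 1 when 1 array was left out. The cause of the other changes was not tested.

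Deviations from the group means had correlations of -0.11, 0.06 and -0.00 between same-numbered replicates 1, 2 and 3. Between differently numbered replicates they ran from -0.15 to 0.12. With 3 arrays per group these values cannot tell whether the numbers pair the arrays. With the replicate number as a block, 3 NF-kB genes fell instead of 4, Relb being the one lost, and 1 rose.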
